A study of Mus musculus with 4 samples.

Results

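The genes described here build the bridge between nucleus and cytoskeleton and the device that fixes meiotic telomeres to the nuclear envelope. Chosen by name, they were Sun1, Sun2, Syne1, Syne2, Syne3, Terb1, Terb2, Majin, Lmna and Lmnb1, 10 of 21887 protein-coding genes. The choice was made with earlier results of these data known. Binding of INO80, the ATPase of a nucleosome remodelling complex, was mapped by ChIP-seq, which sequences the DNA that an antibody brings down with a protein, in 2 INO80 libraries, with 2 input libraries of unprecipitated chromatin. All 4 libraries came from testes of DBA/2J x C57BL/6J F1 mice with no other genotype or treatment group. Per the labels, all mice were given fertilysin, a blocker of retinoic acid synthesis, for 7 days from day 2 after birth and then retinoic acid on day 9, so that the first wave of meiosis ran in step. Testes were taken 8 days after that, when the cells are labelled early zygotene, and cells were purified on 28% Percoll. The sources used here give neither the antibody nor the number of animals per library, so the spread between the replicates may be technical. The peak names of the 2 replicates carry different dates, and date and replicate cannot be told apart. Uniquely mapped reads, as rounded by the authors, numbered 98100000 and 82600000 for INO80 replicates 1 and 2, and 70400000 and 39600000 for the inputs.

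In zygotene, chromosome ends sit on the nuclear envelope and are moved along it, which helps homologous chromosomes to meet. SUN proteins span the inner nuclear membrane and grip the KASH tails of nesprins in the outer membrane, together forming the LINC complex, which passes force from cytoskeletal motors to the telomere. TERB1, TERB2 and MAJIN join the telomere to the inner membrane, and the lamins form the mesh beneath it.

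INO80 peaks of the authors' reproducible set lay at 4 of the 10 genes: both SUN genes, 1 nesprin gene (Syne2) and 1 lamin gene (Lmnb1). This set was made from both replicates and kept, per its title, at an irreproducible discovery rate below 0.05. A gene counted here when a peak lay within 5 kb of its body, which held for 14.9% of all protein-coding genes. The 4 members are 40% of the list, with an exact 95% interval of 12.2 to 73.8% that covers counting error only. In the peak lists of the single replicates, 5 members had a peak in replicate 1 (interval 18.7 to 81.3%, against 26.0% of all genes) and 7 in replicate 2 (34.8 to 93.3%, against 35.7%). A peak in both lists was present at 5 members (24.0% of all genes), and at all 5 the replicates' peaks overlapped by at least 1 bp (23.9% of all genes). These shares are descriptions without a test, and each of these intervals includes the share of all genes beside it. The intervals do not allow for the choice of the members, made with earlier results of these data known. No conclusion is therefore drawn from them. The authors' own assignment of peaks to genes gave the same 4 members, against 11.7% of all genes. No peak in any list was found for 3 genes: the telomere genes Terb2 and Majin, and the lamin gene Lmna. Over all protein-coding genes, 62.4% had no peak in either replicate.

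The members are long genes, and the share of genes with a peak rose with gene length. Their median length was 47444 bp against 17169 bp over all protein-coding genes. A reproducible peak was present at 9.34% of the 5472 shortest genes, at 24.4% of the 5472 longest and at 19.1% of the 10292 genes within the members' own range of 18469 to 530501 bp. When distance was taken to the nearer gene end in place of the body, the same 4 members kept a reproducible peak, against 13.8% of all genes.

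The sequences before the gene starts are shown for 3 members that carry a reproducible peak (Sun1, Sun2, Syne2) and for 3 that do not (Syne1, Terb1, Lmna), as examples of both. They were chosen after their CpG content was seen, so the contrast between them is a description only, and all listed starts are given further on. Each line gives the 250 bases before the start, 5′ to 3′ on the gene's strand, from RefSeq on GRCm38.p6, with CpG dinucleotides in capitals. They lie at chr5:139200387-139200636 on the plus strand (Sun1), chr15:79742537-79742786 on the minus strand (Sun2), chr12:75818068-75818317 on the plus strand (Syne2), chr10:5550693-5550942 on the minus strand (Syne1), chr8:104509888-104510137 on the minus strand (Terb1) and chr3:88503353-88503602 on the minus strand (Lmna). For Syne1 and Lmna the most upstream of several listed starts is shown. That Lmna start, at 88503352, lies inside a gene model whose outer end is at 88509932. The sequence before that outer end has no entry, so it is not shown and its CpG content was not measured.
Sun1: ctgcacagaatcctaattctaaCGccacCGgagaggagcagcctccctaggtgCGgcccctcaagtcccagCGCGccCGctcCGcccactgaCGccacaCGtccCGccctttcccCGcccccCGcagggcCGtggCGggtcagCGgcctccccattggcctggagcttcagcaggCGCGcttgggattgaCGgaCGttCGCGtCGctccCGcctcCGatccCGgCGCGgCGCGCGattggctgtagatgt
Sun2: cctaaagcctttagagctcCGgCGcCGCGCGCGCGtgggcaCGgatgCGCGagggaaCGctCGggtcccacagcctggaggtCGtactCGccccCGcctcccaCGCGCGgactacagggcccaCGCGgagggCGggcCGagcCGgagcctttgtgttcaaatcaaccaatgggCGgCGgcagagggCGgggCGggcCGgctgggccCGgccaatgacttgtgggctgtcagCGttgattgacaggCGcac
Syne2: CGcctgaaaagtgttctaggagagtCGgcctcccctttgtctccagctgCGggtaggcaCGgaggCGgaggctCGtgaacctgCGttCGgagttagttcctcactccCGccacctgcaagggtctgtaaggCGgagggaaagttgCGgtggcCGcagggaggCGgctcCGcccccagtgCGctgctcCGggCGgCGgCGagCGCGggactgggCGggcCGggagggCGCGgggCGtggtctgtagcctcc
Syne1: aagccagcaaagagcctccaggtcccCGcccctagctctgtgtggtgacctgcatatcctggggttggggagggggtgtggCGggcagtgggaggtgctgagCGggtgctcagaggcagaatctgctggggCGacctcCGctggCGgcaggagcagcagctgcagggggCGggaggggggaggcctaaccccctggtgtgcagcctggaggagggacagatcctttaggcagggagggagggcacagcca
Terb1: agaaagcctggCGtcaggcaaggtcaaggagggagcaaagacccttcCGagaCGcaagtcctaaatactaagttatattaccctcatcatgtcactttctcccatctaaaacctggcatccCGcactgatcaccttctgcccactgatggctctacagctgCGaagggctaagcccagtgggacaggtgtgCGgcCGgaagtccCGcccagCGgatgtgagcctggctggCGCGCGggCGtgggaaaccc
Lmna: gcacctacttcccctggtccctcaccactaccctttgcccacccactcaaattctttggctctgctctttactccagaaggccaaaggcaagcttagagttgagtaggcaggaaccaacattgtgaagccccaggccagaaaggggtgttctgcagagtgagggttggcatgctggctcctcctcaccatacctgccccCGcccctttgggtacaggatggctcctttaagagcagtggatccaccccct

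CpG dinucleotides numbered 30 before Sun1, 31 before Sun2 and 26 before Syne2 in these stretches, against 7 before Syne1, 13 before Terb1 and 1 before Lmna. The stretches not shown, before the internal starts of Sun1, Syne1 and Lmna and the listed start of Syne3, held 1 to 4. GC content was 70% for Sun1, 70.8% for Sun2 and 70% for Syne2 against 68% for Syne1, 58% for Terb1 and 56.4% for Lmna. The Sun1 stretch lay wholly under the peaks of both replicates. Of the 250 Sun2 bases, 28 lay under the replicate 1 peak and all under the replicate 2 peak, and of the Syne2 bases 161 and 203 did. At Syne1, 76 of the 250 bases lay under a replicate 2 peak and none under a replicate 1 peak, whereas no peak covered the stretches of Terb1 and Lmna.

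RefSeq promoter windows of 300 bases, reaching 50 bases past the start, were available for 7 of the 10 genes and held 11 starts. Terb2, Majin and Lmnb1 had no entry. CpG observed over expected, the number of CpG set against that given by the C and G content, was 0.947 for the upstream start of Sun1, 1.02 for Sun2 and 0.941 for Syne2. These values exceeded those of 87.6%, 93.4% and 87.0% of 21263 promoter windows of protein-coding genes, whose median was 0.567. Terb1 stood at 0.606, and the upstream start of Syne1 at 0.347 in spite of its high GC content. The remaining windows, the internal starts of Sun1 and Syne1, the listed start of Syne3 and both listed starts of Lmna, ranged from 0.0426 to 0.315. Over all promoter windows, a reproducible peak overlapped 0.353% of the 4250 windows lowest in this measure and 19.8% of the 4262 highest (10.2% of all). The 3 member windows overlapped by a reproducible peak all belonged to these highest windows, and no other member window did. A replicate 1 peak overlapped the same 3 windows, in part at Sun2 and Syne2 (15.3% of all windows). A replicate 2 peak overlapped these and part of the upstream Syne1 window (21.9% of all).

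**Figure D1:**
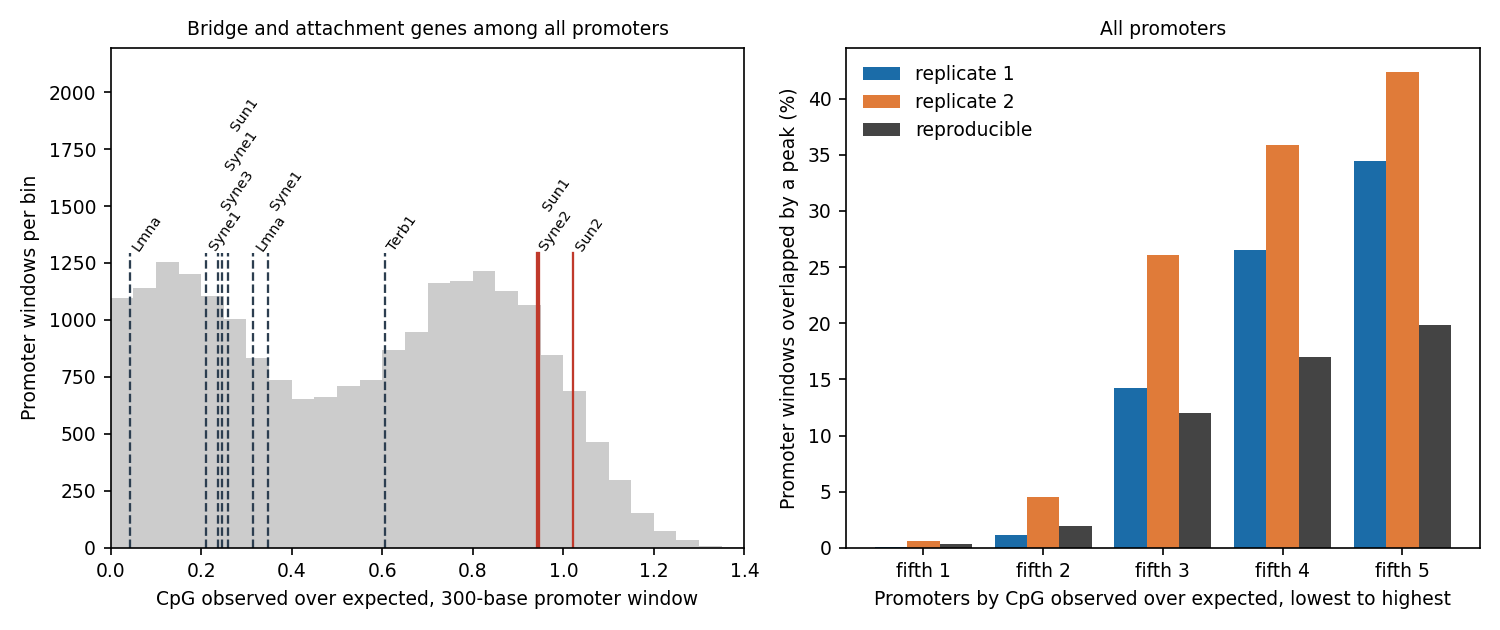
Left, number of 300-base promoter windows (y) by CpG observed over expected (x) for all protein-coding genes in grey. Each window of a bridge or attachment gene is a line, solid red where a reproducible peak overlaps it and dashed elsewhere. The solid lines of Sun1, Sun2 and Syne2 stand at 0.941 to 1.02. Right, percent of windows overlapped by a peak (y) in 5 classes of the same measure (x), for each replicate and the reproducible set, rising from 0.353% to 19.8% in the reproducible set.

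The GC box GGGCGG, which binds Sp factors, was found on either strand in 6 of the 11 member windows, against 46.2% of all windows. It occurred 5 times at Sun2, 4 times at the upstream start of Sun1 and 3 times at Syne2, and also 2 times at the upstream start of Syne1 and 1 time each at Terb1 and the upstream start of Lmna, which have no reproducible peak. The motif CCGGAAGT of ETS factors was in the windows of Terb1 and of the internal start of Lmna (5.15% of all windows), and CNCCTCAG, the motif bound by the meiotic initiators STRA8 and MEIOSIN, in those of the upstream start of Sun1 and the internal start of Lmna (8.52%). No member window held GCGCATGC of NRF1 (3.52%), AAGATGGC of YY1 (3.05%), the cAMP response element TGACGTCA (2.23%) or the E-box CACGTG (7.84%). A match gives letters only, and motifs were allowed to overlap one another.

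Sun1 encodes the SUN protein required in mice for telomere attachment in meiosis, and among the 4 genes with a reproducible peak its fold was the lowest and its peak centre the nearest to the start. Fold enrichment, the peak caller's ratio of signal over its control level, was 3.53 in replicate 1 and 3.91 in replicate 2 (3.72 ± 0.267, mean ± SD, n = 2). Of all peaks in the same list, 64.9% in replicate 1 and 58.9% in replicate 2 had a lower fold, so Sun1 lay somewhat above the middle of both full lists. The peaks shared by both replicates had median folds of 3.29 in replicate 1 and 4.35 in replicate 2. Against these, Sun1 was above the middle in replicate 1 and below it in replicate 2. The replicate 1 peak was 888 bp wide with its centre 8 bp inside the gene, and the replicate 2 peak was 1365 bp wide and centred at 146 bp. In the authors' set the region spans chromosome 5, 139200092 to 139201466, classed as intronic, with a distance of 142 bp from the start of the gene.

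Sun2 encodes the other widely expressed SUN protein. Its fold was 4.25 in replicate 1 and 5.63 in replicate 2 (4.94 ± 0.971, SD, n = 2), higher than 84.2% and 86.5% of the peaks in these lists. The replicate 1 peak was 790 bp wide and reached only 28 bp upstream of the start, while the replicate 2 peak was 1473 bp wide and reached 436 bp upstream. The reproducible region on chromosome 15, 79741488 to 79743001, was assigned to Sun2 at 292 bp but classed by the transcript of Gm16576, a non-coding RNA whose gene begins just upstream in the RefSeq table (79742698). The data do not tell these starts apart.

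Syne2 encodes nesprin-2, a giant outer membrane protein that reaches actin filaments and microtubule motors. Its folds were 4.23 and 5.07 (4.65 ± 0.592, SD, n = 2), above 83.6% and 80.4% of the lists of replicates 1 and 2. The peak was 1137 bp wide in replicate 1 and 1560 bp in replicate 2, with centres 407 and 576 bp inside the gene. The reproducible region lies on chromosome 12, 75818097 to 75819809, in an intron at 635 bp from the start, and it also overlaps the predicted protein-coding gene Gm40447. The gene is 292611 bp long, and no other peak was listed within it or within 5 kb of it in either replicate.

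The other nesprin genes had peaks in replicate 2 only. Syne1, which encodes nesprin-1, had a peak of fold 2.52 at its most upstream start (593 bp wide, centred 220 bp inside the gene) and another of fold 2.34 far inside the gene (chromosome 10, 5083725 to 5084115). In the replicate 2 list only 6.98% and 1.58% of peaks had a lower fold, so both were near its lower end. Syne3 encodes nesprin-3, which binds the linker protein plectin, and had a peak of fold 3.15 with 34.6% of the list below it. That peak (chromosome 12, 105009374 to 105010364) was centred 718 bp inside the outer end of the gene model. The peak centre was 11192 bp upstream of the start listed for Syne3 in the RefSeq promoter table. The lowest fold in the replicate 1 list was 1.55, but a region without a listed peak has no value there, so a difference between replicates at Syne1 and Syne3 was not tested. Replicate 2 peaks without a partner in replicate 1 had a median fold of 2.93 over all 3180 of them.

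Of the telomere attachment genes, Terb2 and Majin had no peak and Terb1 had a peak at its start in 1 replicate. Terb1, whose protein binds the shelterin subunit TRF1, had a replicate 2 peak of fold 2.72 (482 bp wide, centred 332 bp inside the gene), above 15.5% of the list. Replicate 1 had none at that start. A second peak, at 3711 bp from the Terb1 gene body in replicate 1 (fold 2.81) and 3647 bp in replicate 2 (fold 4.06), falls within the 5 kb limit but overlaps the edge of the Dync1li2 gene model that faces Terb1. Dync1li2, named here after its values were seen, encodes a dynein light intermediate chain (chromosome 8, 104417674 to 104443050). This second peak accounts for Terb1 being counted in replicate 1 and in both, and these were the peaks nearest the limit on the inside. Among the 3 genes without a peak inside the limit, the nearest peak was a replicate 2 peak 22873 bp from Lmna. Terb2 had its nearest peak at 379 kb in replicate 1 and 38.1 kb in replicate 2. For Majin the nearest peaks lay 65.8 and 65.7 kb away, at Sac3d1.

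**Figure D2:**
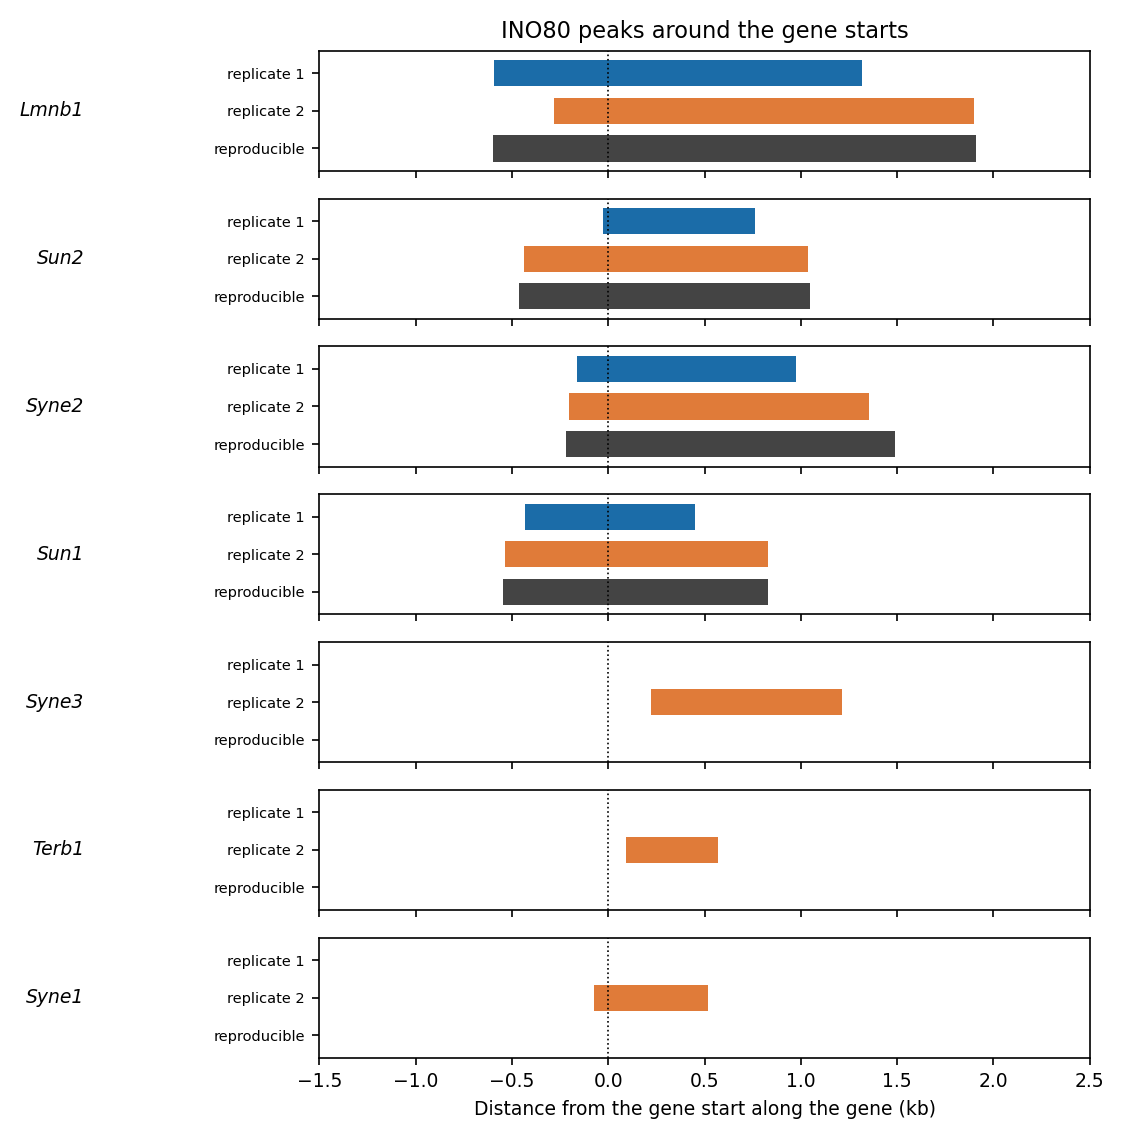
Extent of INO80 peaks along the gene (x, distance from the gene start in kb, positive inside the gene) for the 7 genes with a peak, with bars for replicate 1, replicate 2 and the reproducible set. The start is the RefSeq start nearest the peak, the authors' start for Lmnb1 and the outer end of the gene model for Syne3; the Syne1 peak far inside the gene and the Dync1li2 peak near Terb1 lie outside the plotted range. The 4 genes with reproducible peaks have bars across the start in both replicates, and Syne3, Terb1 and Syne1 have a bar in replicate 2 alone.

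The lamin genes stood at opposite ends. Lmnb1, which encodes lamin B1, a B-type lamin that stays bound to the membrane through its lipid anchor, had the strongest peak of all 10 genes in both replicates. Its fold was 4.84 in replicate 1, rank 380 of 5123 peaks, and 8.17 in replicate 2, rank 149 of 7836 (6.51 ± 2.35, SD, n = 2). The peak was also the widest, at 1910 and 2181 bp, and 95.0% and 85.1% of the peaks in these lists were narrower. The reproducible region spans chromosome 18, 56707214 to 56709721, in exonic sequence 654 bp from the start. Lmna encodes lamins A and C, including the short lamin C2 form made in mouse spermatocytes, and had no peak within 5 kb in any list. Its nearest peaks were 111 kb away in replicate 1 and 22.9 kb away in replicate 2.

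By mean fold the 4 genes with reproducible peaks ran from Lmnb1 through Sun2 and Syne2 to Sun1, an order that both replicates showed. Sun2 and Syne2 are not separated: their means differ by less than the SD of either, and in replicate 1 their folds were 4.25 and 4.23. Lmnb1 and Sun2 also differ by less than the SD of Lmnb1. Each SD also holds the offset between the lists, whose shared peaks had median folds of 3.29 in replicate 1 and 4.35 in replicate 2. Within each list Lmnb1 stood above Sun2, at 4.84 against 4.25 and 8.17 against 5.63, and this gap was not tested. All 4 centres lay inside the gene, at 142 to 654 bp in the authors' set, as did 77.1% of the 2297 reproducible peaks within 1 kb of a start. Widths in that set were 1375 bp for Sun1, 1514 bp for Sun2, 1713 bp for Syne2 and 2508 bp for Lmnb1, against a median of 1781 bp over all 2847 peaks. The replicate 1 peak was contained in the replicate 2 peak at Sun1, Sun2 and Syne2, while at Lmnb1 it reached further upstream, 594 against 283 bp.

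**Figure D3:**
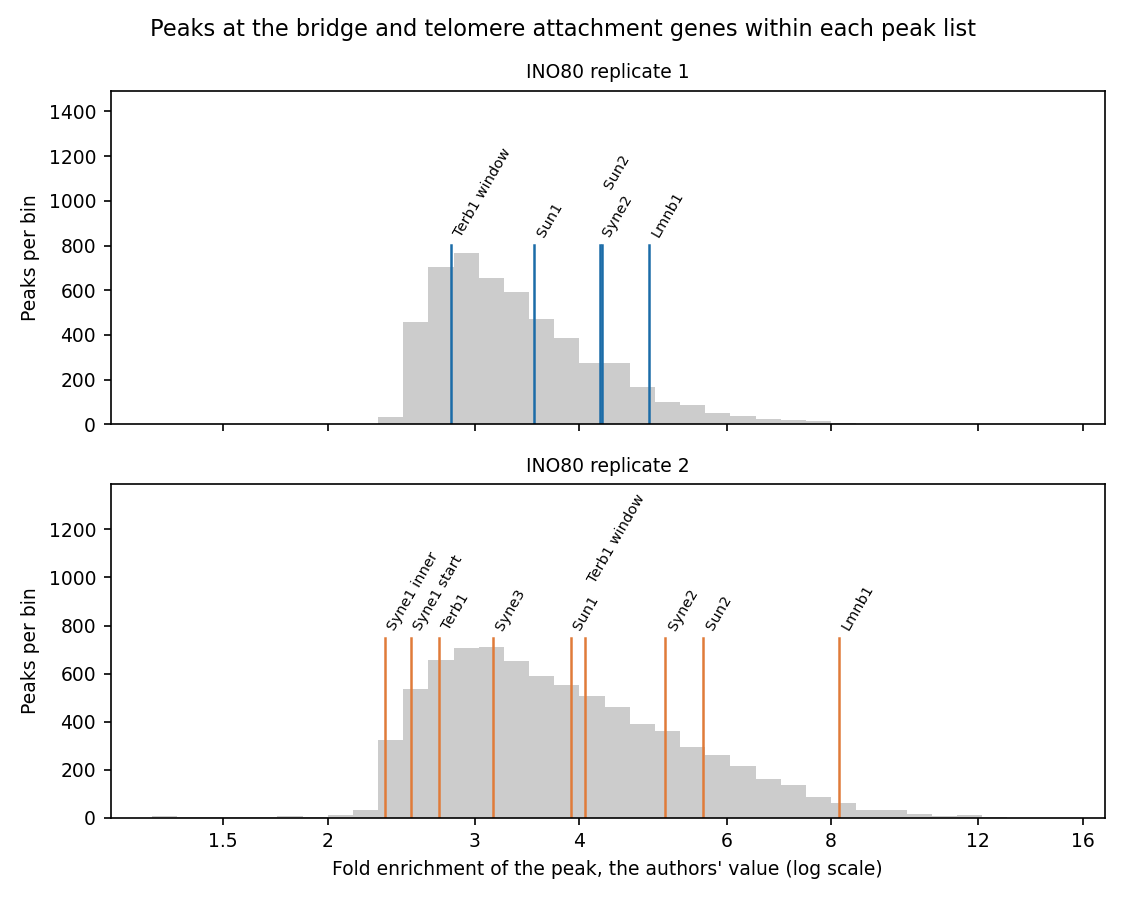
Number of peaks per bin (y) by the authors' fold enrichment (x, log scale) in each replicate's list in grey, with lines at the peaks of the bridge and attachment genes. Lmnb1 lies in the upper tail of both lists (4.84 and 8.17, above 92.6% and 98.1% of the peaks), and the peaks of Syne1, Syne3 and the Terb1 start appear in replicate 2 alone; "Terb1 window" marks the peak at Dync1li2, and "Syne1 inner" the Syne1 peak far from its upstream start.

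Among 29 other genes of the same machinery, 5 had a reproducible peak within 5 kb (17.2%, against 14.9% of all genes) and 9 a peak in both replicates (31.0%, against 24.0%). No peak in either replicate was listed for 16 (55.2%, against 62.4% of all genes), so these shares were near those of all genes. Reproducible peaks were mostly at the lamina and inner membrane, with 4 of 9 genes, a group too small to give a result of its own. Lbr, the lamin B receptor, had the strongest, with folds of 5.08 and 6.46 in replicates 1 and 2 at chromosome 1, 181841172 to 181843831. Lmnb2, the gene of the other B-type lamin, followed with 3.90 and 4.94 (chromosome 10, 80917604 to 80918660). Tmpo, which encodes the lamin-binding LAP2 proteins, had 3.52 and 4.47, and the torsin gene Tor1a 3.10 and 4.14. In the same group, Lemd2 and Lemd3 had peaks in both replicates but no reproducible peak. Emd had a peak in replicate 2 only (fold 2.46), and Banf1 and Tor1aip1 had none.

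Of the 5 other LINC genes, Syne4 (nesprin-4) had a reproducible peak 2770 bp from its body that the authors assign to Sdhaf1, with folds of 3.23 and 3.87. Kash5, whose protein recruits dynein to meiotic telomeres, had peaks of fold 2.72 and 3.65 in replicates 1 and 2 within 5 kb, but these overlap the neighbouring gene Pth2. No peak was listed near Sun3, Sun5 or Spag4. Of all genes, 14.9% had a reproducible peak, 24.0% a peak in both replicates and 62.4% no peak in either. Against these shares, groups this small give no result of their own. Of 6 listed genes of the dynein motor and its partners, none had a reproducible peak. The heavy chain gene Dync1h1 alone among them had a peak in both replicates, with folds of 2.83 and 3.27. Pafah1b1 had a peak in replicate 1 only (fold 3.24), and Dctn1 in replicate 2 only (fold 2.96, at 3372 bp from its body). Dync1li2, named above for its peak in both replicates, was not on that list. Among 7 shelterin genes, which encode the telomere cap, Acd alone had a peak, in replicate 2, at 3940 bp from its body. The telomere kinase genes Cdk2 and Spdya had none. With 62.4% of all genes lacking a peak in either replicate, these groups too are too small to give a result.

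**Figure D4:**
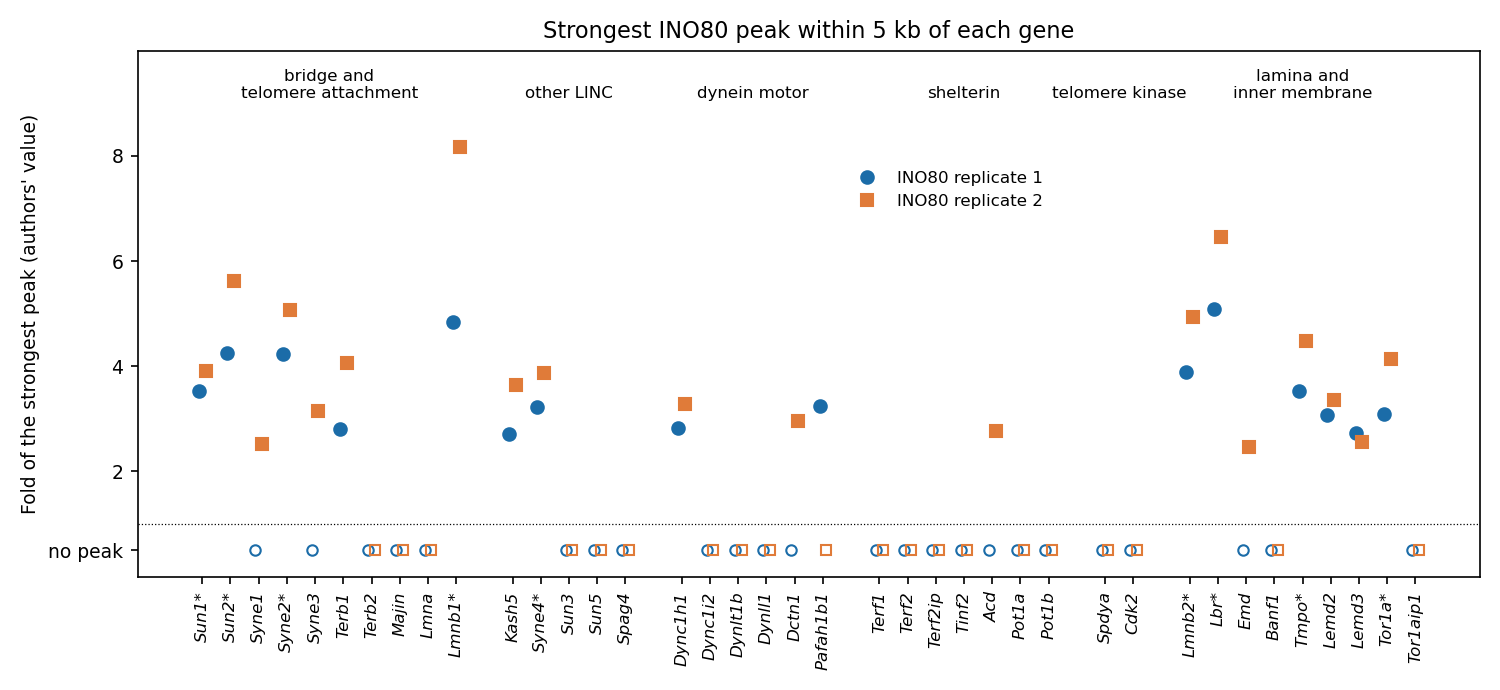
Fold enrichment of the strongest peak within 5 kb of the gene body (y, the authors' value) for the 10 genes and 29 related genes (x), in replicate 1 (circles) and replicate 2 (squares); open symbols on the bottom line mean that no peak was listed, and an asterisk marks a reproducible peak. In replicate 2 a peak was listed for 7 of 9 lamina genes and 1 of 7 shelterin genes, against 35.7% of all genes, with no test of the difference; the values shown for Terb1, Kash5, Syne4, Dctn1 and Acd belong to peaks outside these gene bodies.

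The authors' own tables name these genes in part. Their curated list of 146 meiotic genes holds Sun1, Sun2, Terb1 and Terb2. In the authors' deposited table of selected genes near peaks, Sun1 appears under meiosis I, chromosome pairing and the curated list, and Sun2 under the curated list. In the authors' deposited table of functional terms, Sun1, Sun2, Syne2 and Lmnb1 all stand among the 35 genes under nuclear membrane (fold enrichment 1.35, Benjamini p = 0.461) and the 26 under nuclear envelope (1.44, Benjamini p = 0.461). Neither term passes a limit of 0.05 there. Protein localization to nucleus, with Syne2 among its 12 genes, does pass it (2.91, Benjamini p = 0.0417, in the authors' deposited table). The term centrosome localization, with Sun2 and Syne2 among its 6 genes, had a fold enrichment of 3.63 and a Benjamini p of 0.238 in the authors' deposited table.

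Peaks do not measure expression, so the labelled cell type could not be checked by its transcripts. As a description, a reproducible peak lay within 5 kb of 0 of 6 spermatocyte genes, 3 of 5 spermatogonial genes, 3 of 4 Sertoli genes, 0 of 3 Leydig genes and 0 of 2 peritubular genes. Stra8 is in both germ cell lists. The share over all genes was 14.9%, so a count of 0 in lists this short is near that of any genes. The spermatogonial (60%) and Sertoli (75%) shares were above it, with no test made on lists this short. No gene of the spermatocyte, Leydig or peritubular lists had a peak in either replicate (100% without a peak in each list, against 62.4% of all genes). A peak in both replicates was listed for 4 of 4 Sertoli genes and 3 of 5 spermatogonial genes, against 24.0% of all genes. These differences were not tested either. What part chromatin of other testis cells had in the peaks above was not tested.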

How the data were processed

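INO80 ChIP-seq and input libraries of mouse spermatocytes were analysed from deposited tables. Per the submitters' processing notes, MACS2 2.2.7.1, deepTools 3.4.3, SAMtools 1.11, Picard 2.21.2, BWA and fastp were used with GRCm38 or mm10, but no roles are stated. Which library served as the peak caller's control was not stated either. The authors deposited broad peaks per replicate with a fold enrichment (a ratio), a −log10 p and −log10 q, and a score that holds 10 times the −log10 q without its decimals. They also deposited a reproducible set without signal, rounded numbers of mapped reads, and functional terms with raw and adjusted p-values. The score was not used. The mice carry DBA/2J alleles, while the sequences shown are those of the C57BL/6J reference.

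Gene bodies came from the RefSeq table of GRCm38.p6 (protein-coding, chromosomes 1 to 19, X and Y). A peak counted for every gene within 5 kb of it. Starts and sequences came from the RefSeq promoter table on the same build. Replicate peaks are printed with 1-based starts, and reproducible regions as the authors give them. All counts are descriptions: with 1 condition and peaks called by the authors, no test was made. Alternatives were limits of 1 and 10 kb, distance to the nearer gene end, peak centres, the authors' gene names, fold within 1 kb of the body or 5 kb of the start, a −log10 q of at least 3, required overlap, and each replicate alone. Peak assignment was tested on simulated peaks. The named genes were all 10 members, related genes with a reproducible peak, and genes named by the authors for peaks near a member; Kash5, Dync1h1, Acd and others were named beside counts after their values were seen. Members and lists were chosen with earlier results of these data known. Python 3.11.15, pandas 2.3.3, numpy 2.4.6 and scipy 1.17.1 were used.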

Additional observations from a re-analysis of the deposited data

How the results depend on the processing

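Of 45 recomputed values, 44 stayed within 1.5 times the count reported or within 1 SD of the mean fold. With 2 replicates, leaving 1 out cannot move a mean by more. For Sun1, Sun2, Syne2 and Lmnb1, the limits of 1 kb from the body and 5 kb from the start took the same peaks again. The outcome for the folds was therefore fixed in advance, so this says nothing of their stability. The exception among the 45 values was the count of 4 members with a reproducible peak (14.9% of all genes). That count became 5 from the list of replicate 1 alone (26.0% of all genes) and 7 from that of replicate 2 alone (35.7%). The count of 5 members with a peak in both replicates (24.0% of all genes) stayed at 5 from replicate 1 alone (26.0%) and became 7 from replicate 2 alone (35.7%). It fell to 4 at a limit of 1 kb (21.6% of all genes) and at a −log10 q of at least 3 (16.8%). Where the count moved, the share of all genes moved the same way. Sun1, Sun2, Syne2 and Lmnb1 had a reproducible peak at limits of 1 and 10 kb, by nearer gene end, by peak centre, by the authors' gene names and at a −log10 q of at least 3 (that set holds no q, so a region was kept where it overlapped a peak past this q in each replicate). Over all genes, these settings gave shares of 11.7 to 16.6%. Terb1 lost its count in replicate 1 at a limit of 1 kb and at a −log10 q of at least 3. Syne1 lost its count in replicate 2 at that q. Terb1 has no mean fold within 1 kb of the body or within 5 kb of the start: replicate 1 has no peak there, and replicate 2 has a fold of 2.72. These Terb1 settings are not among the 45 values. No paired analysis was possible because the input libraries have no peak list and all INO80 libraries share 1 condition. A gene without a listed peak has no signal value, so peak lists of unequal length (5123 and 7836) limit what the absence of a peak in replicate 1 shows.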
